A study of Mus musculus with 5 samples.

Results

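Resident macrophages of the peritoneal cavity share that space with cells that arrive from blood monocytes and with dendritic cells. Here 9 genes that mark those monocyte-derived and dendritic cells are described in adherent peritoneal cells of a wild-type and a c-Jun-deleted group. They are Ccr2, Cx3cr1 and Ly6c2 of monocytes, Napsa and Cd209a of monocyte-derived macrophages and dendritic cells, Flt3 and Zbtb46 of classical dendritic cells, and Clec9a and Xcr1 of the cross-presenting dendritic cells called cDC1. The genes were chosen by name, and every array spot whose transcript accession maps to one of these symbols was taken. This gave 13 of the 55681 distinct probes and 8 of the 9 genes, since no probe maps to Ly6c2. Of those 8 genes, 7 were bright enough to test and Xcr1 was not.

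The series measured RNA of adherent peritoneal cells from mice at the age of 8 weeks with 1-colour Agilent arrays. The groups were compared with each other. The c-Jun-deleted group was made of 2 samples, numbered 1 and 9 in the titles, of genotype cJunfl/fl LysMCre-/+. In that genotype a recombinase driven by the Lyz2 locus removes the floxed Jun gene from myeloid cells. The wild-type group was made of 3 samples of littermates, numbered 5, 11 and 14. All mice had a 129/C57Bl6 background and were male or female. The source names of the c-Jun-deleted samples give another Cre line, Mx, so the labels conflict on which Cre was used. Lavage cells were plated overnight and the floating ones removed, so cells that stuck to the dish with the macrophages were also measured.

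Classical monocytes leave the bone marrow through the chemokine receptor Ccr2, which binds Ccl2 and its relatives. Monocytes that patrol vessels, and many tissue macrophages, carry the fractalkine receptor Cx3cr1. In the peritoneum, large macrophages of embryonic origin maintain themselves, whereas small macrophages with high MHC class II are replenished from Ccr2-dependent monocytes. Dendritic cells depend instead on the growth factor receptor Flt3 and express the transcription factor Zbtb46, which macrophages largely lack. c-Jun is a subunit of AP-1, a factor that binds the letters TGANTCA.

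Promoters of the members are given by RefSeq (build GRCm38.p6) as 250 bases before and 50 bases after each gene's start, and they were found for 8 of the 9 genes, with 9 promoters in all. They were searched on both strands for the AP-1 letters TGANTCA, the related CRE letters TGACGTCA, the PU.1 letters GAGGAAGT and an interferon response element. These overlap in no position of the member promoters. Shown are the promoters of the 2 chemokine receptors with lower means in c-Jun-deleted cells, and that of Zbtb46, the only member promoter with the AP-1 letters. Capitals mark a match, and each sequence runs 5′ to 3′ along the gene's strand.
Cx3cr1, chr9:120068247-120068546, minus strand: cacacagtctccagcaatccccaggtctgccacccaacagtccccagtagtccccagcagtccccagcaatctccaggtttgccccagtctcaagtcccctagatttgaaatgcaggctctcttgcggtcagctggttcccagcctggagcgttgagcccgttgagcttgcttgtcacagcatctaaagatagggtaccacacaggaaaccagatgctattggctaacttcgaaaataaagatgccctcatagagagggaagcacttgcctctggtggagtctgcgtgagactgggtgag
Ccr2, chr9:124101933-124102232, plus strand: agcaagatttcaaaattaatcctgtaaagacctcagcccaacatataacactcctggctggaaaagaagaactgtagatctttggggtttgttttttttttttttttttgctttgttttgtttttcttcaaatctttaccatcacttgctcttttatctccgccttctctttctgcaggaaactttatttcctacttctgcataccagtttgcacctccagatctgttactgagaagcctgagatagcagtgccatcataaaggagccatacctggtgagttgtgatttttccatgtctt
Zbtb46, chr2:181424339-181424638, minus strand: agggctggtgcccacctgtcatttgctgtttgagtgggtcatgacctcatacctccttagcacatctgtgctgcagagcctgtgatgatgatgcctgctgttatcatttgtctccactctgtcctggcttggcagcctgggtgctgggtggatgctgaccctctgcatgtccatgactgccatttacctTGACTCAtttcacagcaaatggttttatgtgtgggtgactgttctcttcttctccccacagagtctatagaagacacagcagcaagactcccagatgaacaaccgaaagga
The Zbtb46 match reads TGACTCA and begins at position -61 relative to the start that RefSeq gives. The bases just before that start are a run of c and t that closes with cacag, as introns end. The Zbtb46 window may thus lie inside the gene, and whether the match is a promoter site is unknown here. AP-1 letters were found in 7.81% of all 32851 promoters of this length, so 1 of 9 member promoters is near that share. The PU.1 letters were found at 2 sites of Ly6c2 and in no other member's promoter, against 3.2% of all promoters. The pair of Ly6c2 promoters overlap over most of their length and hold the same sites, so they count as 1 observation. No member promoter held the CRE or interferon letters, which 1.79% and 3.44% of all promoters held. These are matches of letters in a short window, and no binding was measured.

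Napsa was higher and Cx3cr1 was lower in both c-Jun-deleted samples than in every wild-type sample, 3.56-fold and 2.48-fold in the means. Ccr2, Cd209a, Flt3 and Clec9a overlapped between the genotypes, and Zbtb46 was apart by a narrow gap. No member passed the test over all genes, and neither did any of the 27938 genes tested (0% at a Benjamini-Hochberg adjusted limma p below 0.05). At an unadjusted p below 0.05 stood Napsa (higher) and Cx3cr1 (lower), 2 of 7 members, against 12.2% of all genes tested, or 5.63% higher (1572 genes) and 6.53% lower (1823 genes). This split turned with the scaling, to 2125 higher and 1302 lower after quantile normalization, 2408 and 1525 with normexp background correction before it, and 2618 and 697 with arrays centred on the median. Napsa stayed higher and Cx3cr1 lower under all 3. Groups did not overlap for 3 of 7 members, against 33.5% of all genes, 1 of 7 higher against 13.3% and 2 of 7 lower against 20.2%, so these counts are near the background. Values below are log2 of the signal relative to the array's 75th percentile, a difference is the c-Jun-deleted mean less the wild-type mean, and SE is that of the limma fit. The median difference of all genes tested was -0.09, with 10796 genes above 0 and 17142 below. Counts of higher and lower genes in the lists below are to be read beside that split.

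**Figure D1:**
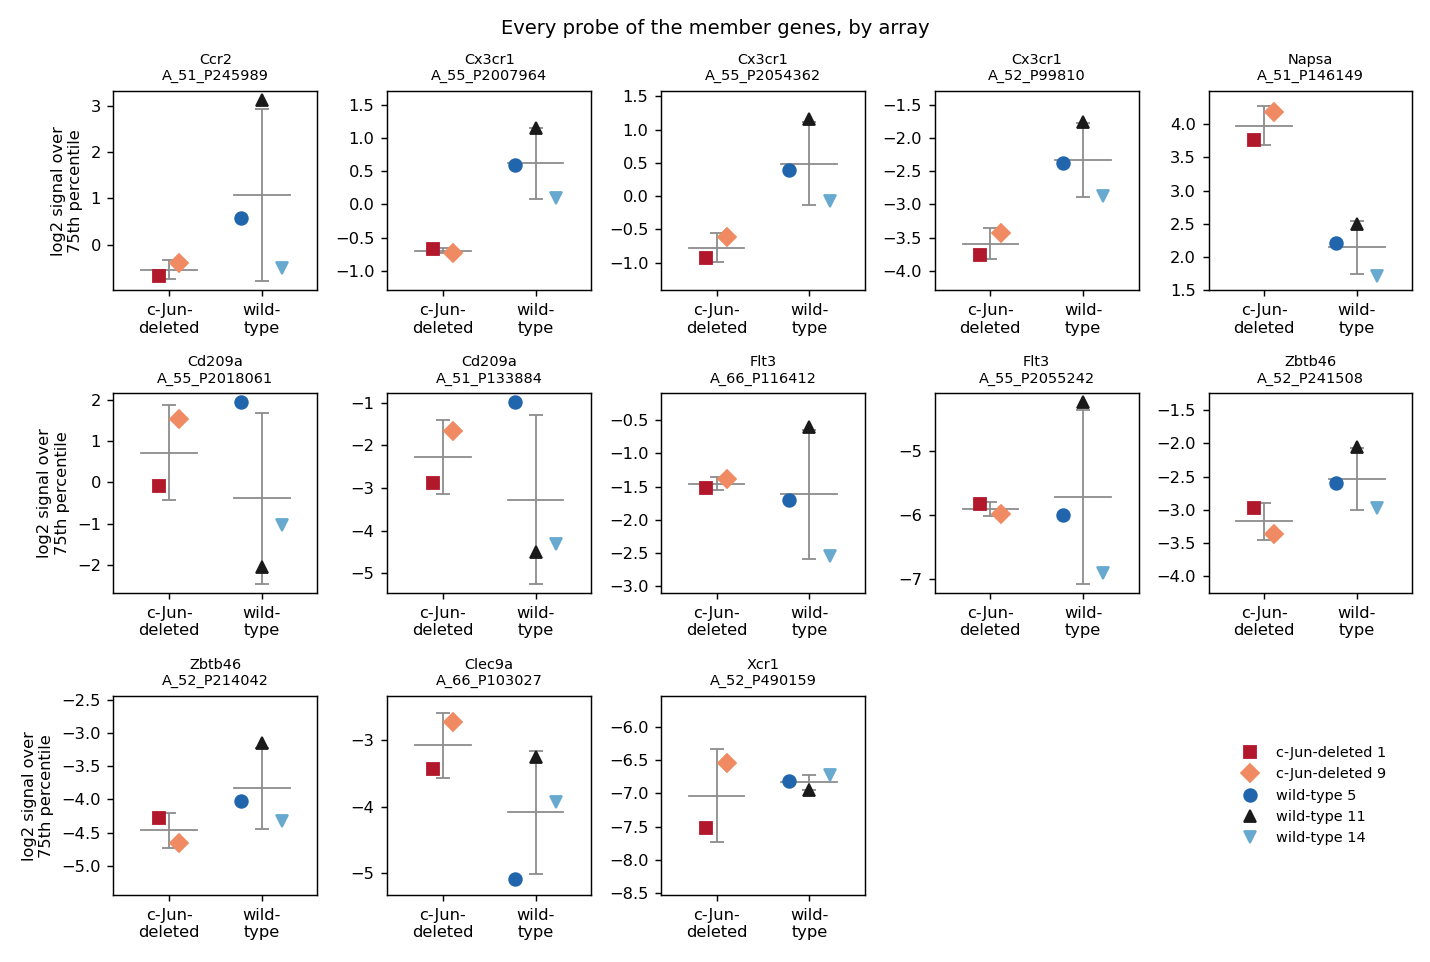
Every probe of the 8 measured genes, as log2 signal relative to the array's 75th percentile (vertical axes, a scale of its own for each probe), with the 2 c-Jun-deleted arrays left of the 3 wild-type arrays. Lines are group means and bars ± 1 SD. The Napsa probe and all 3 Cx3cr1 probes separate the groups, and wild-type 11 is the highest point for Ccr2, Cx3cr1, Flt3 and Zbtb46.

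The arrays had a 75th percentile signal between 437 and 596, and 53.0% to 60.6% of non-control spots were well above background. Slide 1 carried c-Jun-deleted 1 and wild-type 5, and slide 2 carried c-Jun-deleted 9, wild-type 11 and wild-type 14, so the difference of each tested member is also given within slides. Wild-type 11 stood apart in sex-linked RNA. The Y-linked gene Eif2s3y was at 3.27 there and was not well above background on the other 4 arrays. A probe of Xist, the RNA of the inactive X, was at -6.83 there and between -0.12 and 0.54 elsewhere. By these RNAs wild-type 11 read as male and the other 4 as female, so sex cannot be told apart from that array. Jun itself was at 2.76 and 2.71 in c-Jun-deleted samples, against 3.21, 3.75 and 3.17 in wild-type samples. Whether that probe reads the deleted stretch is unknown here, so this does not check the genotype. Lyz2, the lysozyme gene whose locus drives the Cre of the stated genotype, differed between the c-Jun-deleted samples, with 4.46 in number 1 and 8.52 in number 9, against 8.70, 8.76 and 9.18 in wild-type samples. Of 10 pan-macrophage genes, all measured, 7 were lower in the mean of c-Jun-deleted samples, against 17142 of all 27938 genes tested. Of these, 5 were lower without overlap, against 20.2% of all genes tested: C1qb, Mertk, Csf1r, Fcgr1 and Lyz2. In the stated genotype the Cre sits in the Lyz2 locus, so Lyz2 is not a neutral macrophage marker here. The part of the Cre in its value was not tested. Itgam (0.78, SE 0.39) and Cd68 (0.23, SE 0.15) were higher without overlap. The list's median difference of -0.38 was below 0 under every alternative run. None of the 10 passed the adjusted threshold. The samples are bulk RNA, in which fewer cells of a type and less RNA per cell cannot be told apart.

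Ccr2, the receptor that draws classical monocytes toward Ccl2, was at -0.69 and -0.40 in c-Jun-deleted samples, against 0.58, 3.14 and -0.50 in wild-type samples. Wild-type 11 was far above the rest, and wild-type 14 lay between the 2 c-Jun-deleted values, so the groups overlapped. On the scanner's scale the same spot gave signals of 370 and 330 in c-Jun-deleted samples and of 707, 4016 and 339 in wild-type samples. The means were -0.55 ± 0.20 (SD, n = 2) in c-Jun-deleted and 1.07 ± 1.87 (SD, n = 3) in wild-type samples. The difference of -1.62 (SE 1.11) had an adjusted limma p of 0.574. It was -1.26 within slide 1 and -1.72 within slide 2, and without wild-type 11 it was -0.58. The size of the Ccr2 difference thus depended on that 1 array.

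Cx3cr1, the fractalkine receptor, was read by 3 probes of the same transcript. The brightest was at -0.66 and -0.72 in c-Jun-deleted samples, against 0.60, 1.15 and 0.10 in wild-type samples. Both c-Jun-deleted samples were below every wild-type sample, and wild-type 14 was the nearest to them. The difference was -1.31 (SE 0.34, limma, adjusted p = 0.289), and 4.26% of all genes tested had a smaller p. The second probe was at -0.93 and -0.62 in c-Jun-deleted samples and at 0.39, 1.15 and -0.08 in wild-type samples (difference -1.26). The third, dimmer probe was at -3.76 and -3.42 in c-Jun-deleted samples and at -2.38, -1.76 and -2.87 in wild-type samples (difference -1.25). All 3 probes gave the same order of the wild-type arrays and no overlap, but probes of 1 transcript on the same arrays are not replicates. Within slide 1 the brightest probe's difference was -1.26 and within slide 2 it was -1.35. Leaving out each array in turn gave -1.57 to -1.04. Some general macrophage genes also had lower means, though Itgam and Cd68 had higher ones. C1qb, a complement subunit gene, was at 6.75 and 6.73 in c-Jun-deleted samples (difference -0.48, SE 0.16). Its wild-type values were 7.38, 7.07 and 7.18. Mertk, a receptor for uptake of dying cells (-0.55, SE 0.18), and Csf1r, the receptor for the macrophage growth factor (-0.40, SE 0.18), were likewise lower without overlap. Their part in the Cx3cr1 difference was not tested. The authors' deposited table lists all 3 probes, with differences of -1.31, -1.26 and -1.25. That table holds 1709 probes, and the smallest size of a difference in it is 1.0002.

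Ly6c2, which encodes the Ly6C antigen of classical monocytes, could not be read for want of a probe. Its close relative Ly6c1, also found on endothelium and T cells, was at 5.73 and 5.95 in c-Jun-deleted samples, against 4.47, 7.38 and 5.63 in wild-type samples, a difference of 0.01 (SE 0.88). Probes of such similar transcripts may read each other's RNA. All 5 tested genes of the Ly6 family were highest on wild-type 11, the array on which 22.3% of all genes tested were highest. Ly6i was at 1.21 and -1.20 in c-Jun-deleted samples, against 1.13, 4.56 and 3.69 in wild-type samples (difference -3.12, SE 1.27, limma, adjusted p = 0.422). Ly6f, its neighbour in sequence, had a difference of -2.68 (SE 1.17), and for both genes c-Jun-deleted 1 overlapped wild-type 5.

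The genes listed as ligands of the receptors Ccr2, Cx3cr1, Flt3 and Xcr1 were all measured, and 6 of 7 were highest on wild-type 11. None of the 7 passed the test, and their median difference was -0.90, though within slide 1 it was 0.16. Ccl2, the main Ccr2 ligand, was at 2.98 and 1.65 in c-Jun-deleted samples, against 2.52, 4.35 and 2.76 in wild-type samples (difference -0.90, SE 0.72). The groups overlapped through c-Jun-deleted 1. Ccl7, a second Ccr2 ligand, was at -0.07 and -1.09 in c-Jun-deleted samples and at 0.06, 0.92 and -0.04 in wild-type samples (-0.89, SE 0.45), a narrow separation. Ccl8 was at -3.93 and -6.36 in c-Jun-deleted samples, where 1 of 2 arrays was well above background, and at -3.80, -1.54 and -3.77 in wild-type samples (-2.10, SE 1.05). Ccl12, another Ccr2 ligand in mice, was at -3.16 and -4.78 in c-Jun-deleted samples, 1 of 2 well above background, and at -3.66, -1.98 and -2.42 in wild-type samples (-1.28, SE 0.71). For all 4 of these chemokines the lowest array was c-Jun-deleted 9 and the highest wild-type 11. Ccl2 and Ccr2 were therefore both highest on the same wild-type array.

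Cx3cl1, fractalkine itself, was at -1.81 and -0.92 in c-Jun-deleted samples, against -1.97, -0.63 and -1.79 in wild-type samples (difference 0.10, SE 0.52). The c-Jun-deleted values lay inside the wild-type range, whereas those of its receptor did not overlap. Xcl1, made by T and NK cells for the receptor Xcr1, was at -3.16 and -3.59 in c-Jun-deleted samples and at -3.23, -0.64 and -2.53 in wild-type samples (-1.25, SE 0.81). Flt3l, the dendritic cell growth factor that binds Flt3, was at 1.42 and 1.80 in c-Jun-deleted samples, against 1.03, 1.19 and 0.55 in wild-type samples. It was the ligand with the smallest p (difference 0.68, SE 0.26, limma, adjusted p = 0.411), with both c-Jun-deleted samples above every wild-type sample.

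**Figure D2:**
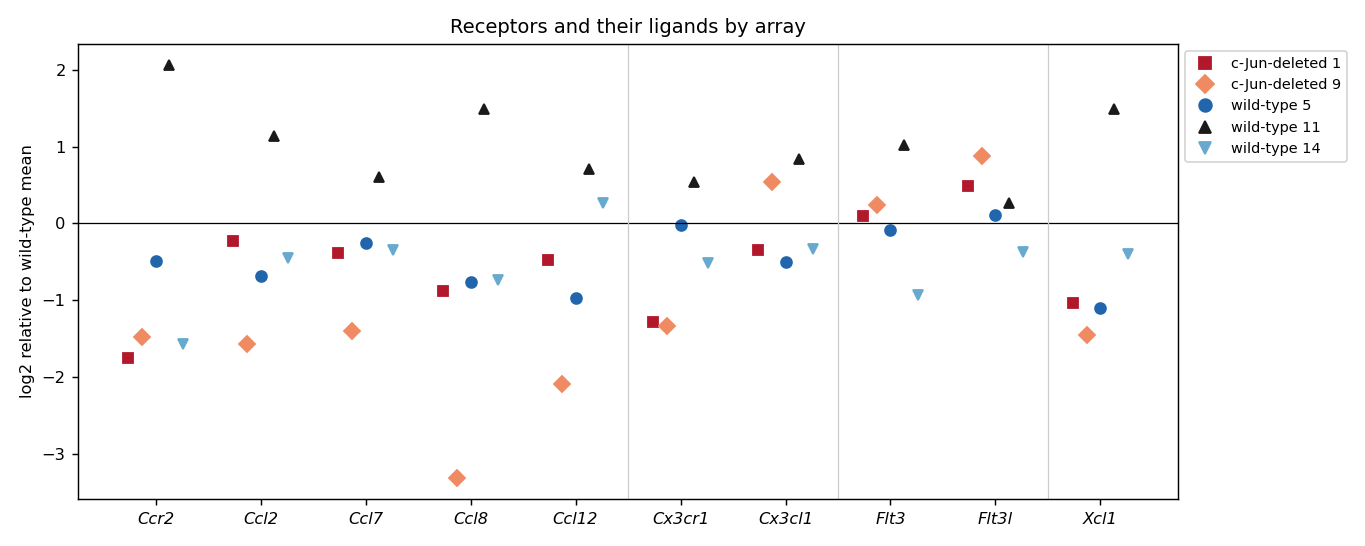
Receptors among the members and their ligands, each as log2 relative to the gene's wild-type mean (vertical axis), 1 point an array. Xcr1 was not well above background and is not drawn. Wild-type 11 is the highest point for Ccr2, Ccl2, Ccl7, Ccl8 and Ccl12, and Flt3l alone of the 7 listed ligands has its highest point in a c-Jun-deleted sample.

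Flt3, the receptor on dendritic cell progenitors and classical dendritic cells, was at -1.53 and -1.38 in c-Jun-deleted samples, against -1.70, -0.60 and -2.55 in wild-type samples. The c-Jun-deleted values lay inside the wild-type range, and the difference was 0.16 (SE 0.59, limma, adjusted p = 0.924). It was 0.18 within slide 1, 0.19 within slide 2 and -0.30 without wild-type 14. A second Flt3 probe was well above background on wild-type 11 alone, at -4.25, and was not tested. Flt3 and its ligand thus differed in whether their groups overlapped, which was not itself tested.

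Zbtb46, a transcription factor of classical dendritic cells, had a brighter probe at -2.98 and -3.36 in c-Jun-deleted samples, against -2.59, -2.05 and -2.97 in wild-type samples. The groups did not overlap, but c-Jun-deleted 1 and wild-type 14 nearly met. The difference was -0.63 (SE 0.32, limma, adjusted p = 0.480), with -0.38 within slide 1 and -0.85 within slide 2. The dimmer probe was at -4.28 and -4.65 in c-Jun-deleted samples, 1 of 2 well above background, and at -4.02, -3.16 and -4.33 in wild-type samples. It gave the same difference of -0.63, with overlapping groups. Wild-type 11 was highest and c-Jun-deleted 9 lowest by both probes.

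Clec9a, a receptor by which cDC1 sense dead cells, was at -3.43 and -2.73 in c-Jun-deleted samples, against -5.08, -3.25 and -3.93 in wild-type samples. It was well above background on both c-Jun-deleted arrays and on 2 of 3 wild-type arrays, so the lowest value, on wild-type 5, is uncertain. The groups overlapped, since wild-type 11 was above c-Jun-deleted 1. The difference was 1.01 (SE 0.60, limma, adjusted p = 0.528), and it was 1.65 within slide 1, 0.86 within slide 2 and 0.51 without wild-type 5. Xcr1, the chemokine receptor of cDC1, was not detected above background on any of the 5 arrays, at -7.53 and -6.54 in c-Jun-deleted samples and at -6.81, -6.96 and -6.73 in wild-type samples. The pair of cDC1 genes was thus dim or not detectable, and no direction is given for Xcr1.

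Napsa encodes the aspartic protease napsin A, known from lung and kidney and used as a marker of antigen-presenting cells with high MHC class II. It was at 3.77 and 4.19 in c-Jun-deleted samples, against 2.22, 2.51 and 1.72 in wild-type samples. Both c-Jun-deleted samples were well above all 3 wild-type samples. The mean was 3.98 ± 0.30 (SD, n = 2) in c-Jun-deleted and 2.15 ± 0.40 (SD, n = 3) in wild-type samples, a difference of 1.83 (SE 0.29, limma, adjusted p = 0.219). Napsa ranked at position 227 of 27938 genes by p. The difference was 1.55 within slide 1 and 2.08 within slide 2, and 1.62 to 2.04 when each array was left out in turn. The authors' deposited table lists the same probe with a difference of 1.83.

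Markers of B cells, which are abundant in the peritoneal cavity, moved with Napsa. All 15 B cell genes were measured, with a median difference of 2.35. In all 15 both c-Jun-deleted samples were above every wild-type sample, against 13.3% of all genes tested. The summed B cell signal, as log2, was 8.22 and 8.75 in c-Jun-deleted samples, against 6.499, 6.17 and 5.52 in wild-type samples. The B cell antigen receptor gene Cd79b, for one, was at 6.86 and 7.41 in c-Jun-deleted samples and at 5.14, 4.72 and 4.00 in wild-type samples. The arrays thus ran in the same order for Cd79b as for Napsa, except that wild-type 5 and 11 changed places. The part of B cells in the Napsa difference was not tested.

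Cd209a, a C-type lectin of monocyte-derived dendritic cells and some MHC class II high macrophages, varied more within each group than between the groups. Its brighter probe was at -0.09 and 1.53 in c-Jun-deleted samples, against 1.93, -2.05 and -1.03 in wild-type samples. Wild-type 5 was the highest array and wild-type 11 the lowest, with both c-Jun-deleted samples between them. The difference was 1.103 (SE 1.31, limma, adjusted p = 0.745). The dimmer probe gave the same order of the 5 arrays, at -2.89 and -1.67 in c-Jun-deleted samples and at -0.99, -4.50 and -4.32 in wild-type samples. The direction turned with the slide: the difference was -2.02 within slide 1 and 3.07 within slide 2. No direction can therefore be given for Cd209a.

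The other Cd209 lectins had the same extreme arrays. All 5 tested relatives were highest on wild-type 5, against 19.9% of all genes tested, and 4 of 5 were lowest on wild-type 11, against 21.2%. Cd209b was at -1.39 and -1.41 in c-Jun-deleted samples, against 0.05, -4.63 and -2.26 in wild-type samples. Cd209d was at -0.85 and -0.66 in c-Jun-deleted samples, against 0.42, -1.02 and -0.77 in wild-type samples. None of the 5 was apart between the groups. Wild-type 11, where Cd209a was lowest, was also lowest in 11 of 16 genes of large resident macrophages. That list's median, relative to the wild-type mean, was 0.81 and 1.09 in c-Jun-deleted samples and 0.66, -0.73 and -0.06 in wild-type samples.

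**Figure D3:**
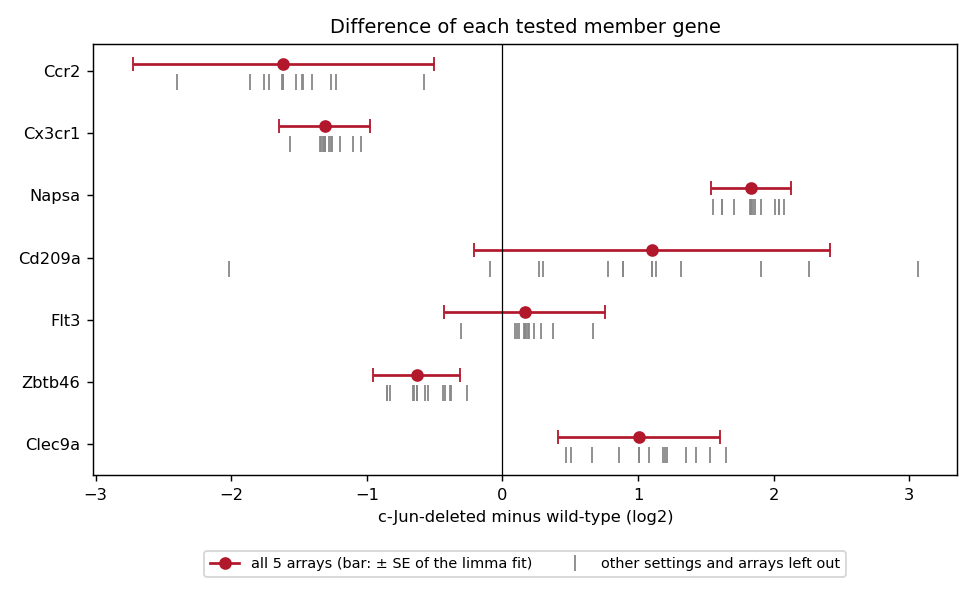
Difference of each tested gene on the log2 scale (horizontal axis, the c-Jun-deleted mean less the wild-type mean), from all 5 arrays (points, with bars of ± 1 SE) and under the other settings and with arrays left out (ticks). Napsa stays between 1.55 and 2.08 and Cx3cr1 between -1.57 and -1.04, whereas Cd209a runs from -2.02 to 3.07.

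Ccr2 and Xcr1 lie near each other on chromosome 9, with 5 genes between them, of which 3 code for proteins: Ccr1, Ccr1l1 and Ccr3. Of the 7 chemokine receptor genes listed around them, 6 were tested. Ccr1, an inflammatory chemokine receptor, was at -0.22 and -1.005 in c-Jun-deleted samples and at 0.14, -0.96 and 0.20 in wild-type samples, with overlap (-0.41, SE 0.47). Ccr9, a gut-homing receptor found on plasmacytoid dendritic cells and some lymphocytes, was at 0.12 and 0.10 in c-Jun-deleted samples, against -1.17, -2.08 and -2.21 in wild-type samples. Its difference of 1.93 (SE 0.36, limma, adjusted p = 0.227) was opposite in sign to that of Ccr2.

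Among 15 other monocyte genes tested, 8 differences were above 0 and 7 below, with a median of 0.00. At an unadjusted limma p below 0.05, against 5.63% of all genes tested that were higher, stood 4 genes, all higher in c-Jun-deleted samples. They were Pou2f2, which encodes the factor Oct-2 that B cells also use (1.28, SE 0.23), Plac8 (1.71, SE 0.59), the transcription factor gene Klf2 (0.81, SE 0.31) and Eno3, a muscle-type enolase (0.50, SE 0.17). Plac8, expressed by monocytes and by some B cells, was at 6.19 and 6.66 in c-Jun-deleted samples, against 4.66, 5.68 and 3.79 in wild-type samples. S100a4, a calcium-binding protein gene of motile cells, had a difference of 0.00 (SE 0.50). The monocyte list as a whole thus had no common direction. The part of B cells in its higher genes was not tested.

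Among 12 tested genes of small peritoneal macrophages and MHC class II, 10 were highest on wild-type 11, against 22.3% of all genes. Of the 12, 8 were lower and 4 higher in the mean of c-Jun-deleted samples. The list's median difference was -0.29, and without wild-type 11 it was 0.10. Folr2, a folate receptor gene of tissue macrophages, was at -0.28 and -0.17 in c-Jun-deleted samples, against 1.53, 2.60 and 0.92 in wild-type samples (difference -1.91, SE 0.52, limma, adjusted p = 0.299). Retnla, a secreted product of alternatively activated macrophages, was at 3.44 and 3.43 in c-Jun-deleted samples, against 5.84, 5.15 and 4.14 in wild-type samples (-1.62, SE 0.52). Itgax, which encodes the integrin CD11c, was at 3.71 and 2.91 in c-Jun-deleted samples, against 3.82, 4.64 and 4.58 in wild-type samples (-1.04, SE 0.38). These 3 genes had no overlap and an unadjusted limma p below 0.05, as Cx3cr1 did. Of the list, 3 of 12 were lower at that p, against 6.53% of all genes, and 4 of 12 lower without overlap, against 20.2%. Irf4, a transcription factor of small macrophages, cDC2 and B cells, went the other way, at 2.24 and 2.59 in c-Jun-deleted samples and at 1.11, 1.56 and 1.01 in wild-type samples (1.19, SE 0.24). The MHC class II genes H2-Ab1 (-0.14, SE 0.22) and H2-Eb1 (0.24, SE 0.58) overlapped between the groups.

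Of 10 other genes shared by dendritic cells, 8 had differences above 0, with a list median of 0.98. At an unadjusted limma p below 0.05 stood 5 of these, against 5.63% of all genes tested that were higher at that p. The 4 with the smallest p were Spib (2.19, SE 0.30), Bcl11a (2.46, SE 0.34), Haao (1.69, SE 0.38) and Dpp4 (1.82, SE 0.46). Spib and Bcl11a encode transcription factors that B cells also need. Spib was at 4.72 and 5.16 in c-Jun-deleted samples, against 3.10, 2.84 and 2.31 in wild-type samples, and Bcl11a was at 2.86 and 3.05 in c-Jun-deleted samples, against 0.76, 0.83 and -0.10 in wild-type samples. Relb, an NF-kB subunit gene of mature dendritic cells, had overlapping groups (-0.38, SE 0.23). The median of the list had the sign of the B cell list and of Napsa, and the opposite of Zbtb46. The part of B cells in it was not tested.

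Genes of each dendritic cell subset lay on both sides of 0. Of 9 other cDC1 genes, 3 were higher and 6 lower, near the split of all genes tested (10796 higher and 17142 lower). Their median of -0.05 turned to 0.16 with arrays centred on the median. Cd24a, an antigen that B cells also carry (1.40, SE 0.24), and Wdfy4, a gene needed for cross-presentation and present in B cells (0.85, SE 0.21), were higher in both c-Jun-deleted samples. Tlr3, a receptor for double-stranded RNA, was lower in both (-0.65, SE 0.24), and Irf8, the factor that specifies cDC1, was at 5.03 and 5.24 in c-Jun-deleted samples and at 5.11, 5.28 and 5.08 in wild-type samples. Of 7 other cDC2 genes, 5 were lower, 4 of them without overlap, against 20.2% of all genes tested that were lower without overlap. Their median of -0.44 was below 0 under every alternative run. Clec4a4, a lectin gene of cDC2 (-0.77, SE 0.22), and Tnip3, an inhibitor of NF-kB signalling (-1.35, SE 0.45), were lower, and Dtx1, a Notch pathway gene, was higher (2.41, SE 0.38). Of 8 plasmacytoid dendritic cell genes, the median was -0.04 (0.17 with that centring). The lectin gene Siglech was level, at 6.98 and 7.16 in c-Jun-deleted samples and at 7.16, 6.99 and 7.08 in wild-type samples. It was the brightest of the 8, and brighter than the macrophage gene Csf1r (means of 6.19 in c-Jun-deleted and 6.59 in wild-type samples). Which cells gave the Siglech signal was not tested. None of these dendritic cell genes passed the adjusted threshold, and the part of B cells in them was not tested.

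**Figure D4:**
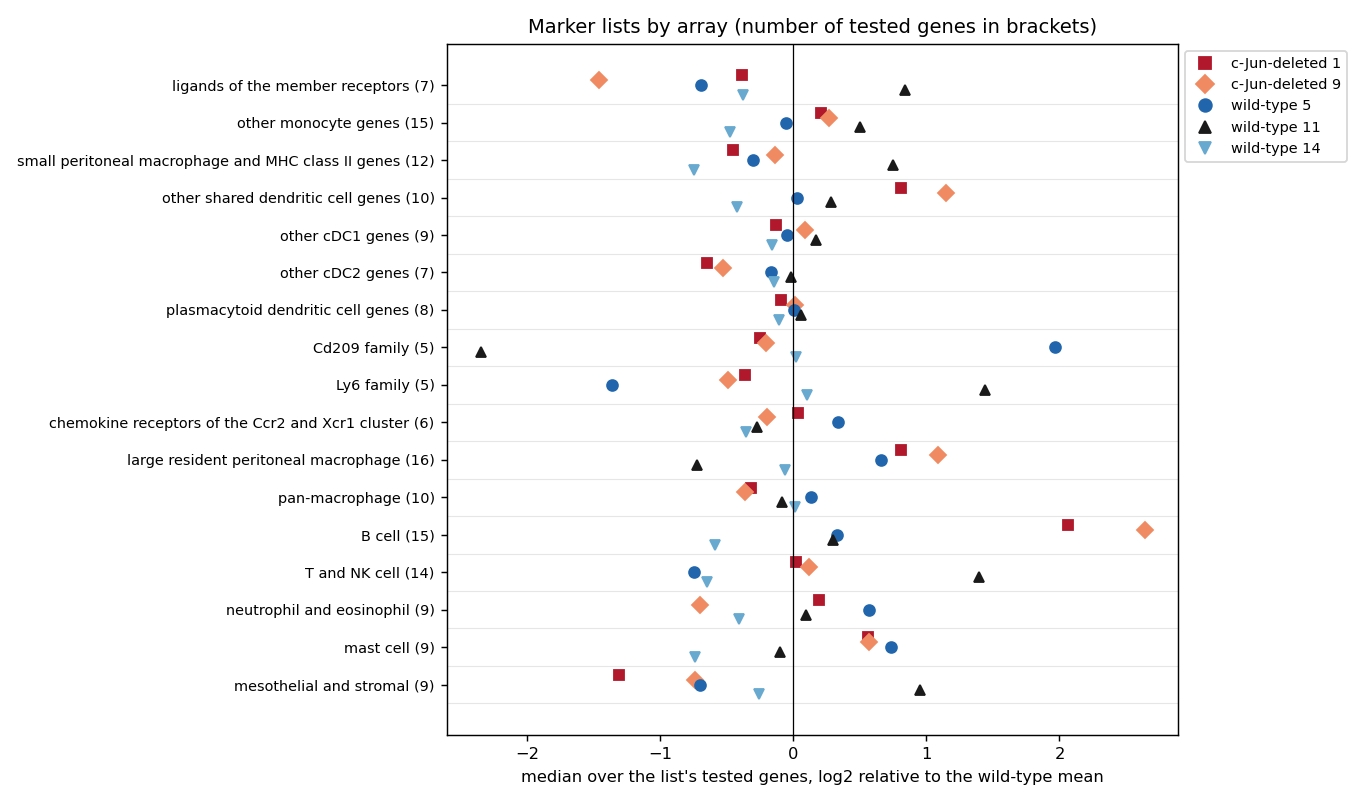
Marker lists by array: the median over each list's tested genes, as log2 relative to each gene's wild-type mean (horizontal axis), 1 point an array and the number of genes in brackets. B cell genes lie at 2.07 and 2.64 in c-Jun-deleted samples and between -0.59 and 0.33 in wild-type samples, and wild-type 11 stands out in the T and NK cell list at 1.40.

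Markers of some other cells also set wild-type 11 apart, the array on which 4 of 7 members (Ccr2, Cx3cr1, Flt3 and Zbtb46) were highest, against 22.3% of all genes tested. Of 14 T and NK cell genes, all measured, 11 were highest there. The summed T and NK signal, as log2, was 4.82 and 5.25 in c-Jun-deleted samples, against 3.96, 5.82 and 3.98 in wild-type samples. Of 9 mesothelial and stromal genes tested, all 9 were lower in the mean of c-Jun-deleted samples, with a median of -1.08, and 7 were highest on wild-type 11. Of the 9 genes, 6 were lower without overlap, against 20.2% of all genes tested. Their summed signal, as log2, was 1.34 and 1.98 in c-Jun-deleted samples and 2.06, 3.36 and 2.97 in wild-type samples. For neutrophils and eosinophils, 9 of 13 genes were tested and the sum was 4.21 and 3.59 in c-Jun-deleted samples, against 4.09, 4.01 and 4.30 in wild-type samples. Of those 9 genes, 2 were highest on wild-type 11, and of 9 mast cell genes tested, 0 were highest there. The part of these cells, or of sex, in the values of Ccr2 and Cx3cr1 was not tested.

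The members did not share 1 pattern. Likeness was measured as the root-mean-square difference in log2 over the 5 arrays after each gene's own mean was subtracted, over 12836 named genes well above background on all arrays, and is a description of the same 5 samples. Counted from Cx3cr1, Zbtb46 was close to it (0.35, with 0.475% of genes closer to Cx3cr1). The share was not counted from Zbtb46. Cx3cr1 lay 0.88 from Ccr2, with 1.14% of genes closer to Ccr2, a share counted from Ccr2 alone. Seen from Cx3cr1, Flt3 was nearer than Ccr2, at 0.78, yet 63.5% of genes were closer still. Ccr2 was thus not close to Cx3cr1 by that count. Napsa was far from Cx3cr1 (1.55, with 98.2% of genes closer to Cx3cr1). The genes nearest to Ccr2 were Scin, which encodes an actin-severing protein (0.25), Pdgfc, a growth factor gene (0.33), and Clec10a, a lectin gene of the small macrophage list (0.34). Nearest to Cx3cr1 were Ifitm6 (0.12), Sycn (0.17) and Cracdl (0.18). Ifitm6, of a family of interferon-induced membrane proteins, was at 2.55 and 2.58 in c-Jun-deleted samples, against 3.88, 4.17 and 3.13 in wild-type samples.

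Nearest to Napsa were Bcar3, an adaptor protein gene (0.041), Itpr3, a calcium channel gene of the endoplasmic reticulum (0.046), and Noxred1 (0.060). Itpr3 was at 3.61 and 4.05 in c-Jun-deleted samples, against 2.12, 2.37 and 1.49 in wild-type samples, which is the array order of Napsa. Nearest to Zbtb46 were Gm5431 (0.072), the annexin gene Anxa2 (0.090) and the kinesin gene Kif3a (0.091). Nearest to Flt3 were the homeobox gene Hoxb3 (0.11), Slc45a3 (0.12) and H2-T24 (0.13). Cd209a had no near neighbour, since even the closest, the prostacyclin synthase gene Ptgis (0.64), the claudin gene Cldn10 (0.64) and Acacb (0.67), were farther off than those of every other member examined.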

How the data were processed

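The deposited scanner output gives spot intensity after background subtraction by Feature Extraction 11.5.1.1, with no scaling between arrays, per the file headers. The deposited flags (another kind of value, 0 or 1) mark outlying, saturated and well-detected spots and served as filters. The authors' deposited series table holds log2 values as 1 mean per group, after a shift to the 75th percentile, per its name. The medians of its columns are 1.19 (c-Jun-deleted) and 0.54 (wild-type). The baseline subtracted from each probe is unknown, so only column differences were used. Its header lists 4 arrays under wild-type, and 1 of them was not analysed here.

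Control spots and flagged spots were left out, spots of a probe averaged, and log2 of the processed signal taken minus log2 of the array's 75th percentile. Probes were named by transcript accession through RefSeq (28026 probes, 21154 symbols). The arrays were designed on mm9, so coordinates are given only with RefSeq's own promoters. Probes needed a signal well above background on 2 or more of the 5 arrays, and the brightest stood for a gene. The 27938 genes (unnamed probes as they were) were tested with limma (version 3.58.1, R version 4.3.3), by lmFit and eBayes with no covariate, 2-sided, at a Benjamini-Hochberg threshold of 0.05. An exact permutation test of 2 against 3 arrays gives no p under 0.1, so none was run. The members, the other 17 lists and the tests were chosen with earlier results of these data known. Named from the other lists were all ligands, elsewhere up to 4 genes with the smallest p and up to 2 with the highest mean signal, and up to 3 genes nearest each member in pattern. Nothing says more of the animals than their numbers, and if samples were not separate animals, p-values cover just their technical spread. Alternatives were another normalization, background correction, filter, probe choice, array weights, slide as a block or within slides, and leaving out each array. The background alternative used the spots' median signal, as the files hold no mean signal. One gene of the listed chemokine receptors is not reported here.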

Additional observations from a re-analysis of the deposited data

How the results depend on the processing

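Of the 7 tested genes, Ccr2, Cx3cr1, Napsa, Zbtb46 and Clec9a kept their sign under every alternative run, and only Napsa passed the adjusted threshold in any. With arrays centred on the median, which raised all differences alike and put their median at 0.12, Napsa was at 2.04 with an adjusted limma p of 0.0482 (over its alternatives 0.0482 to 0.784), and 187 genes passed. With array weights 1 gene passed and Cd209a turned to -0.091. Cd209a was -2.02 within slide 1, and Flt3 was -0.30 without wild-type 14. Within slide 2 the groups did not overlap for 19667 genes and 5 members, and 1836 genes had an unadjusted p below 0.05; within slide 1, with 1 array a group, overlap cannot be judged. Leaving out each array in turn gave 0 genes at the adjusted threshold, 1688 to 4505 genes and 1 to 3 members at an unadjusted p below 0.05, and 12289 to 17014 genes and 4 to 5 members without overlap, counts that rise because fewer arrays overlap less. Over the same omissions the differences were -2.40 to -0.58 for Ccr2, -1.57 to -1.04 for Cx3cr1, 1.62 to 2.04 for Napsa, 0.27 to 2.26 for Cd209a, -0.30 to 0.67 for Flt3, -0.85 to -0.39 for Zbtb46 and 0.51 to 1.42 for Clec9a. The causes of the changed values were not tested. No paired analysis was possible because the groups share no replicate numbers. The number of arrays limits every value, and Clec9a, Zbtb46 and Ccl8 lie near background.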
